A study of Homo sapiens with 39 samples.

Results

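A set of 10 genes of the NF-kappaB pathway, chemokine targets included, was followed through 39 AmpliSeq libraries of HepaRG™ cells: the inhibitors NFKBIA and TNFAIP3, the subunits RELB and NFKB2, the survival gene BIRC3, the adhesion gene ICAM1 and the chemokines CXCL1, CXCL2, CCL2 and CCL20. They were taken by gene symbol, each with 1 amplicon target, and are 10 of the 20802 gene targets in the table. HepaRG™ is an established human hepatic progenitor line that differentiates into cells resembling hepatocytes and cholangiocytes. Of the test chemicals 5 are DNA damage-inducing (DDI) and 5 are not (non-DDI), and each was given at a low, a mid and a high concentration. The DDI chemicals were aflatoxin B1 (AFB1, a mould toxin activated by liver enzymes) at 0.25, 1 and 2.5 µM, 2-nitrofluorene (2NF, a nitroarene) at 10, 50 and 250 µM, cisplatin (CISP, a DNA crosslinker) at 2, 5 and 10 µM, etoposide (ETP, a topoisomerase II poison) at 0.5, 2.5 and 10 µM, and methyl methanesulfonate (MMS, an alkylating agent) at 50, 100 and 200 µM. The non-DDI chemicals were colchicine (COL, which blocks microtubule assembly) at 0.05, 0.1 and 0.3 µM, 2-deoxy-D-glucose (2DG, an inhibitor of glycolysis) at 1.25, 5 and 10 mM, ampicillin trihydrate (AMP) at 1, 3 and 10 mM, sodium ascorbate (ASC) at 1, 2 and 10 mM, and sodium chloride (NaCl) at 1, 2.5 and 10 mM. Differentiated cells were kept for 7 days after seeding before treatment. They then received 3 daily doses over a 55 h exposure and were sampled 7 h after the last dose. The 9 controls received vehicle alone, which was DMSO in 4 libraries (for CISP, 2NF, ETP, and 1 shared by AFB1 and COL), medium in 4 (for NaCl, 2DG, ASC and AMP) and water in 1 (for MMS). RNA from the 3 cultures of a condition was pooled into 1 library, so a single treated library has no replicate check, and any spread between cultures is not visible in these data.

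NF-kappaB is a family of dimeric transcription factors that are held in the cytoplasm by inhibitor proteins until a receptor, a cytokine or DNA damage activates the IkappaB kinases. In the canonical arm the inhibitor NFKBIA (IkappaB-alpha) is degraded, and the freed dimers switch on chemokine, adhesion and survival genes together with NFKBIA and TNFAIP3 (A20), which close the loop. In the non-canonical arm the NFKB2 precursor is processed and pairs with RELB. In liver the pathway is known for protecting hepatocytes from death and for recruiting leukocytes through chemokines.

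Members of the family bind a 10-base kappaB consensus. RefSeq promoter windows (build GRCh38.p14, from 250 bases before to 50 bases after a gene's start) were matched for 8 of the 10 genes and not for RELB and CCL2. The consensus was searched on both strands, with overlapping matches merged. It was present in 8 of the 10 windows of these genes, against 11.3% of all 35116 windows. By gene it was present in 7 of 8, since NFKB2 has 3 windows. The genes were chosen as members and targets of the pathway, so this contrast is no test and no evidence about them. Of the 8 genes, ICAM1 had no window with an exact match. Near matches were not counted, so this does not show that its promoter lacks a kappaB site. A match is a string of letters and not a measured binding site. The 200 bases before the start are shown for the 6 of these genes whose levels followed concentration in at least 1 chemical, 5′ to 3′ on the gene's strand, with the consensus in capitals. The chemokine promoters come first, then the inhibitor, the subunit and the survival gene.
CXCL1: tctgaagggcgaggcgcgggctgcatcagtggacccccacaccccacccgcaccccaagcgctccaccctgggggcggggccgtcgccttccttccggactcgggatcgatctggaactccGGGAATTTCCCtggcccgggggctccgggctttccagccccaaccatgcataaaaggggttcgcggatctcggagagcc
CXCL2: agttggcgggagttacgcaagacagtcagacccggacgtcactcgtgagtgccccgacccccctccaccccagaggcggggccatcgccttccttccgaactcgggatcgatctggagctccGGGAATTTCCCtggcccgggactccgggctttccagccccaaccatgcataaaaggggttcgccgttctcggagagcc
CCL20: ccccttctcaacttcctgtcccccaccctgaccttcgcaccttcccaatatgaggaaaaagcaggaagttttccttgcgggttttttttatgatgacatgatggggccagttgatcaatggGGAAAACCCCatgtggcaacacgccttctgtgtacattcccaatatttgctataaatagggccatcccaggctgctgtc
NFKBIA: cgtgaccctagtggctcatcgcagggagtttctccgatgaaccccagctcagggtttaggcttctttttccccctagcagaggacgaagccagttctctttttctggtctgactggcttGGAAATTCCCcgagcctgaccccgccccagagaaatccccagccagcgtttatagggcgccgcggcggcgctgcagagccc
NFKB2: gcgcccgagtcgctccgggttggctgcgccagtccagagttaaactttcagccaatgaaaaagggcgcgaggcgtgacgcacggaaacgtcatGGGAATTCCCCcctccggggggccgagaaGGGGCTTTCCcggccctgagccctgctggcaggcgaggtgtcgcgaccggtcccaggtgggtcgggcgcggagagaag
BIRC3: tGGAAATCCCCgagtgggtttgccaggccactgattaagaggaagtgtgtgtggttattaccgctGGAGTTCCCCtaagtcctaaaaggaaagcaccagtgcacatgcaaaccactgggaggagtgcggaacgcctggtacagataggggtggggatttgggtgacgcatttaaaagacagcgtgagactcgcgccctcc
They lie at chr4:73869193-73869392 (plus strand) for CXCL1, chr4:74099196-74099395 (minus strand) for CXCL2, chr2:227813642-227813841 (plus) for CCL20, chr14:35404750-35404949 (minus) for NFKBIA, chr10:102394378-102394577 (plus) for NFKB2, which has 3 annotated starts, and chr11:102317284-102317483 (plus) for BIRC3. CXCL1 and CXCL2, both on chromosome 4, carried the same 11-base stretch GGGAATTTCCC, starting 79 and 78 bases upstream. Both also shared an unbroken run of 42 identical bases closer to the start. The consensus of NFKBIA began 81 bases upstream and that of CCL20 79 bases upstream, whereas the 2 stretches of BIRC3 began 199 and 135 bases upstream.

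Levels are given as RPM, the reads on a gene's amplicon scaled to 1000000 reads in the library. Library totals ran from 8504699 to 16425527. For the 10 genes the lowest count in any library was 48 (CCL20) and the highest half-width of a 95% Clopper-Pearson interval was 29.4% of the value, also for CCL20; these intervals cover counting error only. Each library has 1 amplicon per gene, so levels are compared between libraries and not between genes. All 10 genes passed the filter on low counts, along with 13812 genes in all. Hepatocyte identity was checked with 8 markers, all detected, whose summed level was 20016 to 43661 RPM in the controls and 2912 to 41964 RPM in treated libraries. The leukocyte markers PTPRC and CD3E had a median count of 0, and the 4 leukocyte markers summed to 0.68 to 2.22 RPM in controls and 0.86 to 4.12 RPM in treated libraries. Of 7 cholangiocyte markers KRT7, EPCAM and CFTR had a median count of 0, as did VWF and CDH5 of 3 endothelial markers.

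The vehicle controls differed from each other in these genes, and this bears on every comparison with a single control. Among 12 pairs of controls that received the same vehicle, 20 of 120 gene and pair combinations differed by more than 2-fold, against 2.56% over all genes tested. All 20 came from 5 genes: ICAM1 (5 pairs), TNFAIP3, CXCL2 and CCL20 (4 each) and CXCL1 (3). NFKBIA, RELB, NFKB2, BIRC3 and CCL2 had none. ICAM1 stood at 35.7 and 32.4 RPM in the media controls for 2DG and NaCl but at 11.0 and 8.3 RPM in those for AMP and ASC, and TNFAIP3 at 43.4 and 29.5 RPM against 12.6 and 13.8 RPM. Among DMSO controls the one for ETP was lowest in 4 of these 5 genes, with CXCL2 at 76.6 RPM against 90.0 RPM in the one for CISP, 160.9 RPM in the one for 2NF and 270.2 RPM in the one for AFB1 and COL. The treated libraries CISP low and 2DG low also stood apart. CISP low was more than 2-fold below its control in TNFAIP3, ICAM1, CXCL1 and CXCL2 (6.23% of all genes tested were), and 2DG low in TNFAIP3, ICAM1 and CXCL1 (3.21% of all genes).

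**Figure D1:**
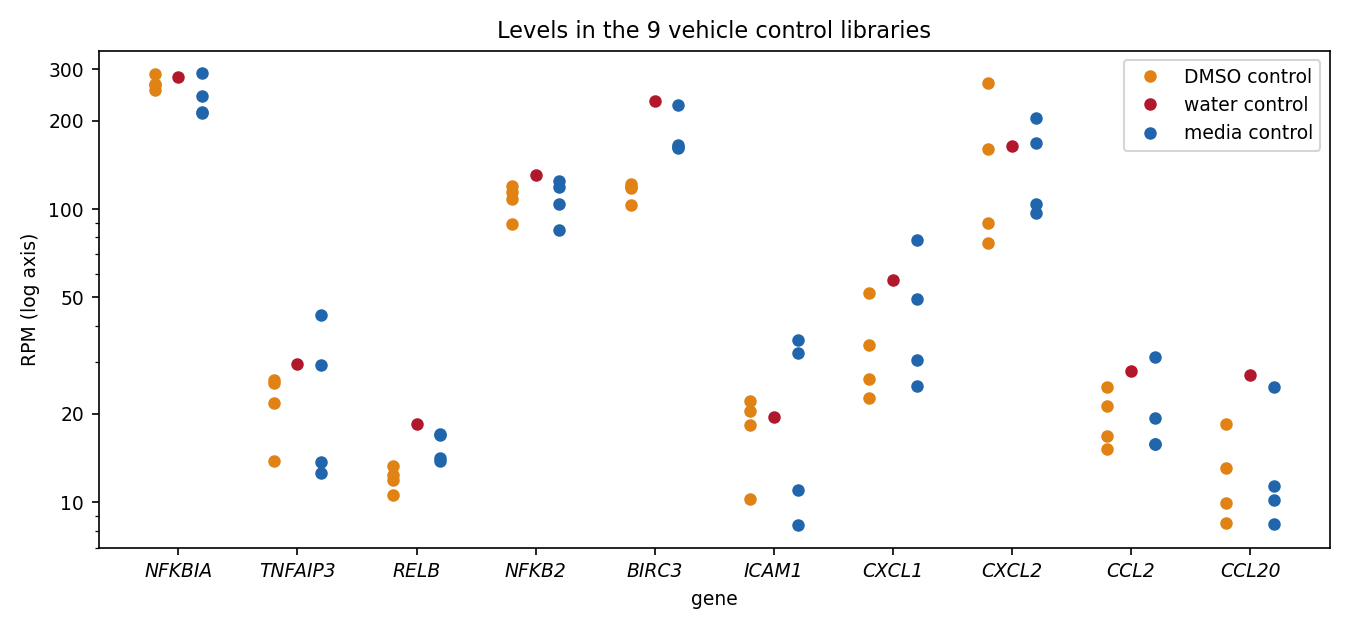
Levels in the 9 vehicle control libraries, 1 point per library, as RPM on a log axis, for DMSO (orange), water (red) and media (blue). NFKBIA, RELB and NFKB2 lay within 2-fold ranges, TNFAIP3, ICAM1, CXCL1, CXCL2 and CCL20 spread over more than 3-fold, and BIRC3 was lower in the 4 DMSO controls than in the others.

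Over all 39 libraries NFKBIA, both subunits, BIRC3 and CCL2 kept within narrower limits than the other 5 genes. NFKBIA ran from 148.0 RPM (MMS high) over a median of 233.8 to 331.7 RPM (ETP low), RELB from 10.6 RPM (the 2NF control) over 16.5 to 34.0 RPM (MMS mid), and NFKB2 from 78.4 RPM (AMP mid) over 118.3 to 218.8 RPM (MMS high). BIRC3 lay between 103.3 RPM (the ETP control) and 302.5 RPM (2NF high) with a median of 164.4 RPM, and CCL2 between 9.6 RPM (MMS high) and 38.3 RPM (AFB1 high) with a median of 20.6 RPM. The highest value was 2.24 to 4.00 times the lowest in these 5 genes. TNFAIP3 ran from 5.65 RPM over 27.3 to 56.1 RPM (AFB1 high), ICAM1 from 3.48 over 23.3 to 55.6 RPM (2NF high), CXCL1 from 5.78 over 43.8 to 78.7 RPM (the 2DG control) and CXCL2 from 28.8 over 167.6 to 283.6 RPM (ETP low). CISP low held the lowest value of all 4. CCL20 ran from 4.54 RPM (CISP mid) over 17.5 to 40.5 RPM (2NF high). In these 5 genes the highest value was 8.94 to 16.0 times the lowest.

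Media and DMSO controls could be compared as groups of 4. BIRC3, an inhibitor of apoptosis that is itself an NF-kappaB target, was at 103.3, 117.9, 118.6 and 121.6 RPM with DMSO and at 161.2, 162.3, 166.0 and 226.3 RPM with medium. The difference, DMSO minus media, was -0.61 ± 0.13 on the log2 scale (SE, edgeR adjusted p = 0.0203), the single call among the 10 genes where 5.35% of all genes were called. With 10 genes, 1 call is near that share and is not a result about these genes. The BIRC3 difference fell short of the threshold when the DMSO control for CISP, for 2NF or for ETP was left out. RELB was next at -0.34 ± 0.14 (adjusted p = 0.200).

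To ask which genes followed concentration, a slope over the 4 steps from control to high was fitted for each chemical, in 1 edgeR model of the 39 libraries. Of 100 slopes 13 passed an adjusted p of 0.05, 7 upwards and 6 downwards. They fell in 8 genes and in 4 chemicals: MMS (6 of 10 genes, background 15.5% of all genes tested), 2NF (4, background 8.75%), COL (2, background 12.3%) and AFB1 (1, background 5.57%). The shares for COL and AFB1 are near the background and are not a result about these genes. TNFAIP3 and ICAM1 passed in no chemical. In the same 4 chemicals hepatocyte markers fell as well, 6 of 8 with MMS, 5 with 2NF, 6 with COL and 5 with AFB1. Of all genes tested, 10.4%, 4.45%, 7.21% and 3.21% fell with MMS, 2NF, COL and AFB1. The hepatocyte markers summed to 22931 RPM in the water control and to 17366, 2912 and 5891 RPM with MMS. Of the 4 cholangiocyte markers tested, 3 fell with MMS, 1 with COL and 2 with 2NF, where SPP1 rose. PECAM1, the 1 endothelial marker tested, fell with MMS (-0.76 ± 0.21, adjusted p = 0.0140). ITGAM, a myeloid integrin, rose with AFB1 and 2NF, where the 4 leukocyte markers summed to 4.12 and 3.55 RPM at high. The part of these markers in the results was not tested, and with RNA of whole cultures fewer cells of a type and less RNA per cell cannot be told apart.

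**Figure D2:**
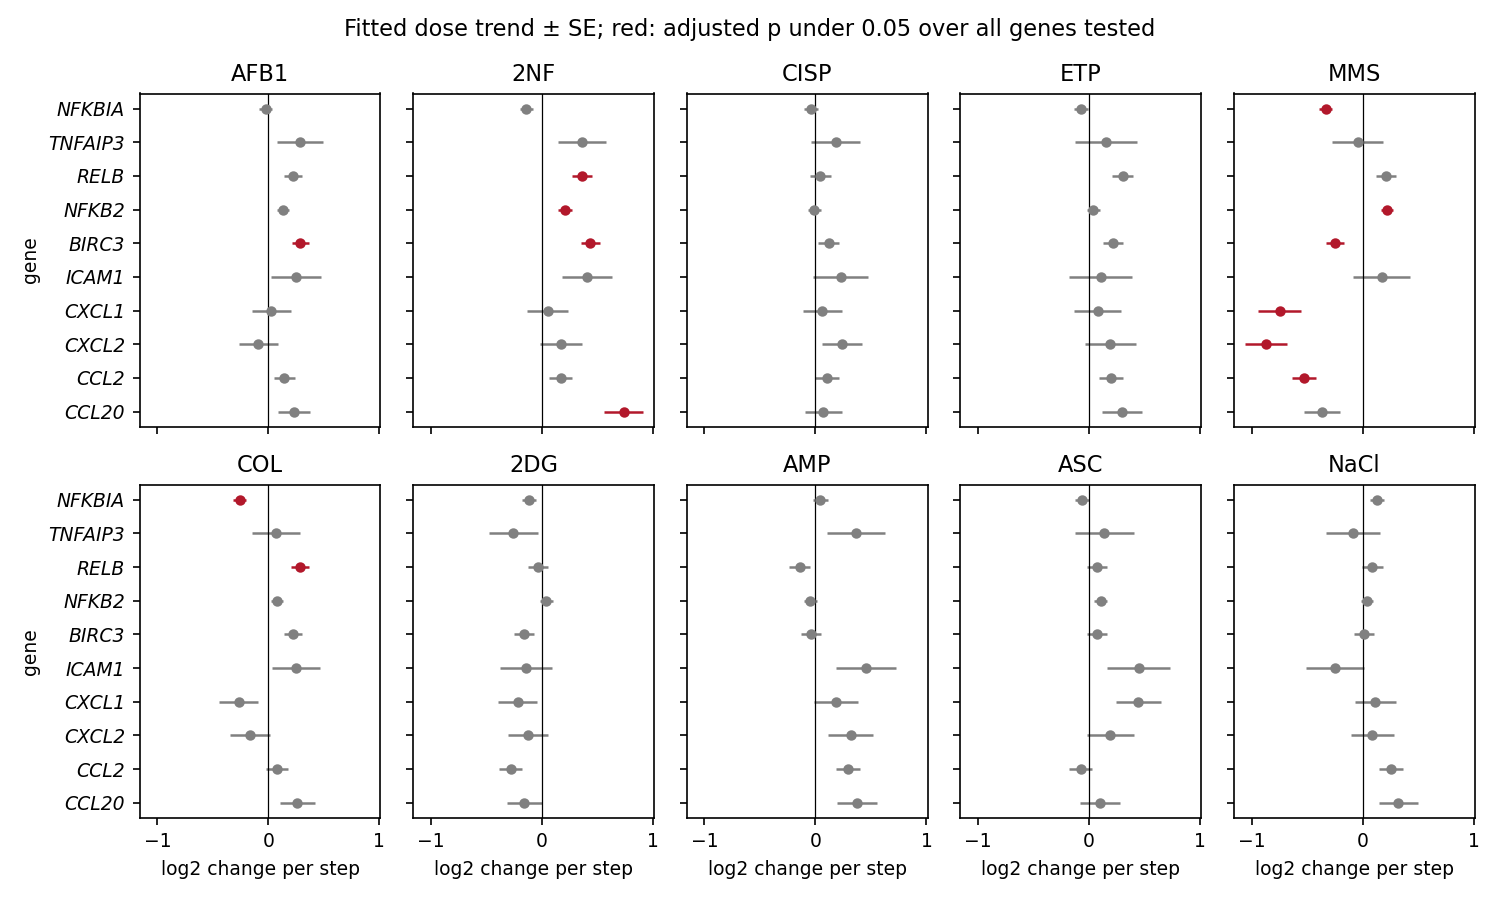
Fitted slope, in log2 units per concentration step, for 10 genes and 10 chemicals. Points are estimates, bars are ± 1 SE, and red marks an edgeR adjusted p under 0.05 over all genes. MMS has 5 red points to the left of 0 and 1 to the right, and 2NF has 4 to the right.

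With MMS 3 of the 4 chemokines fell, where 10.4% of all genes fell. CXCL2, a neutrophil attractant, stood at 163.9 RPM in the water control and at 54.1, 31.4 and 30.01 RPM at low, mid and high. All 3 treated libraries lay below every one of the 9 controls, whose lowest value was 76.6 RPM. The slope was -0.87 ± 0.19 per step (adjusted p = 0.00234). CXCL1, which binds the same receptor, went from 57.1 RPM to 28.6, 14.95 and 14.2 RPM, with a slope of -0.75 ± 0.19 (adjusted p = 0.00838). Mid and high were below all controls, and low was inside their range. CCL2, the main monocyte attractant, went from 28.1 RPM to 15.3, 13.6 and 9.6 RPM, with a slope of -0.53 ± 0.11 (adjusted p = 0.00126), and mid and high were again below all controls. CCL20, which attracts CCR6-bearing lymphocytes and dendritic cells, was at 27.1 RPM and then at 8.2, 15.8 and 11.6 RPM. Its treated libraries were all lower than their control without an order by concentration, and the slope of -0.37 ± 0.16 did not pass (adjusted p = 0.134). CXCL1, CXCL2 and CXCL3 are close paralogs, and how reads were divided between them is uncertain.

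Among the regulators, 1 fell and 1 rose with MMS, where 5.1% of all genes rose. NFKBIA was at 282.0 RPM in the water control and at 166.9, 157.2 and 148.0 RPM in the treated libraries, all under the lowest of the 9 controls, 212.6 RPM. Its slope was -0.33 ± 0.06 (adjusted p = 0.000468). NFKB2, the precursor of the p52 subunit, went the other way, from 131.0 RPM to 136.7, 179.8 and 218.8 RPM, with a slope of 0.22 ± 0.06 (adjusted p = 0.00896). RELB, its partner, was at 18.5 RPM and then at 19.2, 34.0 and 26.6 RPM, with a slope of 0.21 ± 0.09 that did not pass (adjusted p = 0.126). For both subunits the 3 treated libraries lay above all 9 controls, as they did for 10.8% of all genes tested, and for NFKBIA and CXCL2 they lay below all of them, as for 5.86%. BIRC3 was at 233.8 RPM, the highest of the controls, and then at 135.3, 135.6 and 147.0 RPM, with a slope of -0.25 ± 0.08 (adjusted p = 0.0428). These treated values were inside the range of the 9 controls, 103.3 to 233.8 RPM. TNFAIP3 (29.5, then 19.9, 25.2 and 27.8 RPM) and ICAM1 (19.6, then 24.5, 31.7 and 29.1 RPM) had no called slope.

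The MMS calls rest on the single water control. Without that library no slope passed and that of BIRC3 changed sign, to 0.04. When all libraries were instead given 1 common intercept, an alternative chosen after seeing the data, 6 genes passed again. NFKBIA, CXCL1, CXCL2 and CCL2 were lower and NFKB2 and RELB higher, with RELB at 0.36 per step (edgeR adjusted p = 6.77e-05). BIRC3 was at -0.11 (adjusted p = 0.329). The share of all genes called was not taken for this setting, so the count of 6 has no background beside it.

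**Figure D3:**
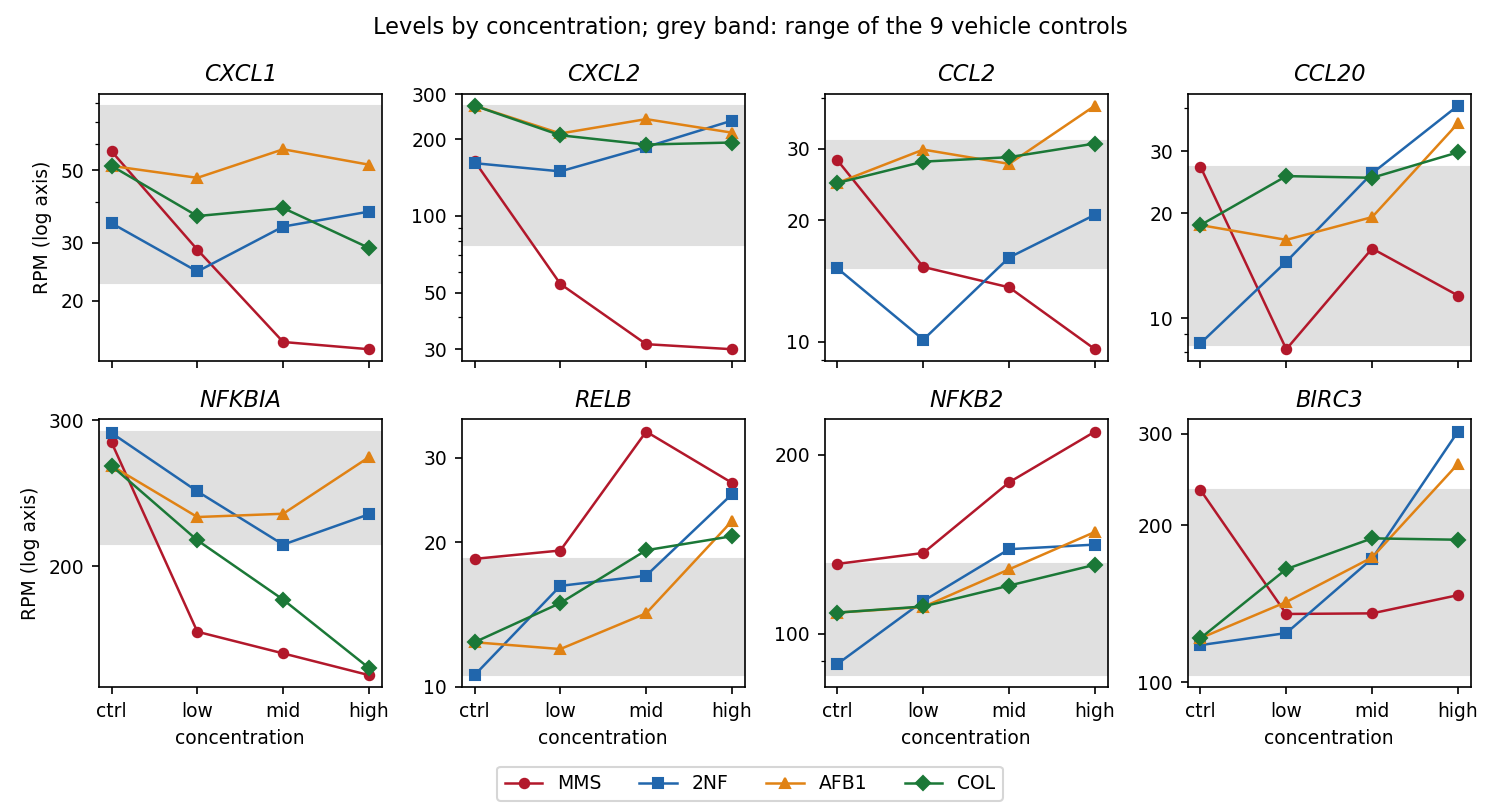
Levels of 8 genes as RPM on a log axis against concentration for MMS (red), 2NF (blue), AFB1 (orange) and COL (green), with 1 library per point. The grey band is the range of the 9 vehicle controls, and AFB1 and COL start from the same control. CXCL2 and NFKBIA fall out of the band in all 3 MMS libraries, and BIRC3 rises above it in 2NF high and AFB1 high.

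With 2NF 4 of the 10 genes rose, as did 4.3% of all genes. CCL20 was at 8.5 RPM in its control and at 14.5, 26.0 and 40.5 RPM, a step up at each concentration. Its slope of 0.74 ± 0.17 was the steepest upward one among the 10 genes (adjusted p = 0.00588), and 2NF high held its highest level of the 39 libraries. Its control was the second lowest of the 9, and low and mid lay inside the control range of 8.4 to 27.1 RPM. BIRC3 rose from 117.9 RPM to 124.3, 172.7 and 302.5 RPM (0.43 ± 0.08, adjusted p = 0.000951), and 2NF high was again the highest of all libraries. RELB rose from 10.6 RPM to 16.2, 17.1 and 25.2 RPM (0.36 ± 0.09, adjusted p = 0.0114), from the lowest of the 9 controls, and high alone was above their range of 10.6 to 18.5 RPM. NFKB2 rose from 88.9 RPM to 113.5, 138.7 and 141.2 RPM (0.21 ± 0.06, adjusted p = 0.0250). The NFKB2 control was also the second lowest, and mid and high were above the range of 85.1 to 131.0 RPM. In 2NF high, TNFAIP3 (51.8 against 21.8 RPM) and ICAM1 (55.6 against 22.2 RPM) were also more than 2-fold above the control, while low and mid were below it, so neither slope passed. CXCL1, CXCL2 and CCL2 had slopes of 0.05 ± 0.19, 0.17 ± 0.19 and 0.17 ± 0.10, and NFKBIA one of -0.14 ± 0.06 (adjusted p = 0.201). Without 2NF high no gene passed, and without the 2NF control BIRC3 alone did.

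AFB1 and COL were measured against the same DMSO control, so their values are given side by side and their errors are not independent. BIRC3 was at 121.6 RPM in that control. It rose to 142.6, 173.6 and 262.3 RPM with AFB1 (0.29 ± 0.08, adjusted p = 0.0280) and stood at 164.9, 188.9 and 187.7 RPM with COL (0.22 ± 0.08, adjusted p = 0.0865). Only AFB1 high was above the range of the controls. NFKBIA was at 264.3 RPM in the control, at 229.3, 231.4 and 270.7 RPM with AFB1 and at 215.0, 182.4 and 151.0 RPM with COL, where it fell (-0.26 ± 0.06, adjusted p = 0.00325). COL mid and high were below the lowest control. RELB was at 12.4 RPM, then at 12.0, 14.2 and 22.2 RPM with AFB1 (0.23 ± 0.08, adjusted p = 0.118) and at 14.95, 19.3 and 20.6 RPM with COL, where it rose (0.29 ± 0.08, adjusted p = 0.0229). AFB1 high also held the highest CCL2 and TNFAIP3 of the 39 libraries, at 38.3 and 56.1 RPM. The calls in both chemicals were lost without the high library or without the shared control, and that of AFB1 also without AFB1 low.

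For the other 6 chemicals no slope of the 10 genes passed in edgeR or in DESeq2. Over all genes the share called was 0.0% for CISP, 2DG and AMP, 0.0796% for ETP, 0.0579% for ASC and 0.0434% for NaCl. At an unadjusted p under 0.05 there were 0 of the 10 genes for CISP (6.65% of all genes), 1 for 2DG (1.53%), 1 for ASC (14.2%), and 2 each for ETP (4.28%), AMP (3.03%) and NaCl (4.63%). With CISP the low values of 4 genes were those of 1 library: CXCL2 was at 28.8 RPM at low but at 105.6 and 119.8 RPM at mid and high, above its control. With ETP, RELB was at 11.9 RPM in the control and at 10.7, 19.7 and 19.6 RPM (0.30 ± 0.09, adjusted p = 0.385), and CCL2 at 21.3 RPM and then at 37.7, 36.9 and 34.2 RPM. The 3 ETP libraries were above all 9 controls for CCL2, as they were for 0.543% of all genes, without an order by concentration. CCL20 (13.1, then 29.8, 24.3 and 29.3 RPM) was likewise above the control range of 8.4 to 27.1 RPM at low and high.

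The slopes differed among the 10 chemicals for 3 genes, by an F test in the same model that called 11.0% of all genes. They were NFKBIA (adjusted p = 0.00350), CCL2 (adjusted p = 0.00370) and BIRC3 (adjusted p = 0.00438). BIRC3 had called slopes in both directions, upwards with 2NF and AFB1 and downwards with MMS. The downward call rests on the single water control, without which that slope changed sign. For RELB, CXCL1, CXCL2 and CCL20 the adjusted p lay between 0.0679 and 0.0933, so a difference in slope between chemicals was not shown for them. Without the CISP low and 2DG low libraries, a setting chosen after seeing the data, 5 genes passed.

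Set against its own control, a treated library differed by more than 2-fold in 49 of 300 gene and library pairs, 34 higher (background 1.55% of pairs over all genes) and 15 lower (background 1.6%). Those higher included 11 pairs with AMP, 8 with ETP, 7 with ASC, 6 with 2NF and 2 with AFB1. Those lower were 8 with MMS, 4 in CISP low and 3 in 2DG low. Against the mean of the controls of the same vehicle, the pairs with AMP, ASC and 2DG became 0, those with ETP 3, those with COL and AFB1 4 each and those with CISP 5, while 2NF again had 6. No share over all genes was taken for this comparison, so these counts have no background beside them. For MMS this comparison changes nothing, since its control is the 1 water library. ICAM1 in the AMP libraries, for example, was at 23.3, 31.8 and 29.5 RPM against 11.0 RPM in their own control, but inside the 8.3 to 35.7 RPM spanned by the 4 media controls. CXCL1 in the ASC libraries was at 52.9, 62.5 and 65.6 RPM against 24.96 RPM, and inside the 24.96 to 78.7 RPM of the media controls. NFKBIA and NFKB2 never differed by more than 2-fold.

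**Figure D4:**
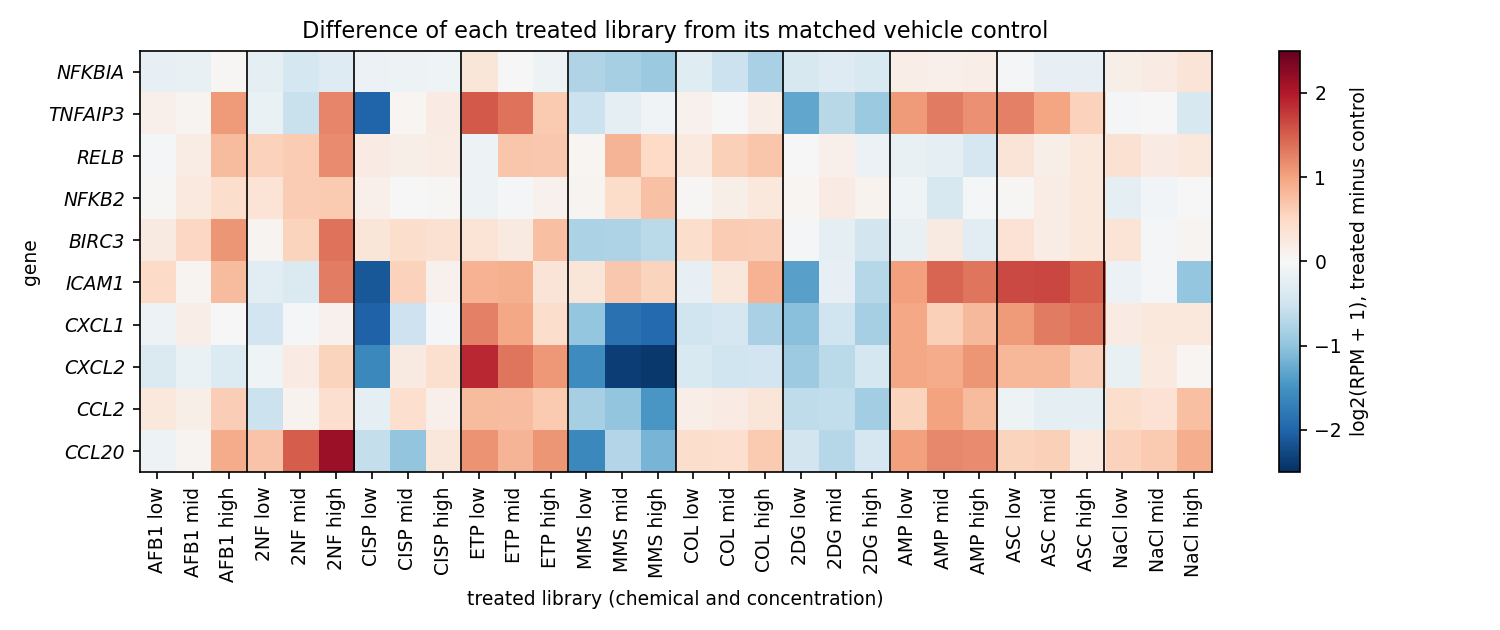
Difference in log2(RPM + 1) between each of the 30 treated libraries and its own vehicle control, for the 10 genes. Red is higher and blue lower than the control, and vertical lines separate the chemicals. The darkest blue is CXCL2 in MMS mid and high (-2.35 and -2.41), and the columns of AMP, ASC and ETP are mostly red in the 5 genes whose controls varied by more than 2-fold.

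The DDI and non-DDI classes, with 5 chemicals each, had no called difference in these genes. At low, mid and high alike edgeR and DESeq2 called 0 of the 10 genes, and 0 had an unadjusted p under 0.05, as 2.26%, 5.75% and 7.86% of all genes did. Over all genes edgeR called 0.0% at low and mid and 0.0515% at high. At the high concentration the difference, DDI minus non-DDI, ran from -0.28 ± 0.49 for CXCL1 to 0.56 ± 0.34 for TNFAIP3 on the log2 scale, and that of RELB was 0.44 ± 0.22 (adjusted p = 0.688). A difference within these errors could not have been detected. Within the DDI class, CXCL2 at high differed from its control by -2.41 log2 units with MMS, by -0.35 with AFB1, and by 0.41, 0.55 and 1.08 with CISP, 2NF and ETP.

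Over the 39 libraries some genes varied together, a description only, since libraries share controls, depth and chemicals. TNFAIP3 and ICAM1 had a Pearson's r of 0.84 and CXCL1 and CXCL2 one of 0.82. RELB and NFKB2 followed at 0.68. NFKBIA ran against RELB, with an r of -0.58. The 2 genes most like each member over all genes tested were KLF10 (0.89) and ICAM1 for TNFAIP3, SOX12 and CHMP1A (both 0.92) for ICAM1, IL8 (0.87) and CXCL1 for CXCL2, and REPS2 (0.84) and FOS (0.82) for CXCL1. For CCL2 they were IL8 (0.78) and PHLDA1 (0.75), and for CCL20 TRIB1 (0.75) and EGR2 (0.74). RELB was most like TTK (0.89) and SPC25 (0.88), NFKB2 like STIP1 and DEM1 (both 0.88), NFKBIA like MYBPH (0.80, 7 to 105 counts) and SPTSSA (0.77), and BIRC3 like NOV (0.80, 0 to 19 counts) and CA12 (0.73).

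A list of 53 further genes of the pathway, from ligands to targets, was examined in the same model, and 45 passed the filter on low counts. The other 8 were the ligands TNF, IL1A, LTA and LTB, the targets CCL5, CXCL5 and CXCL6 and the adhesion gene VCAM1. TNF and IL1A had at most 1 count in any library. Of the 45, 14 were called in 18 gene and chemical pairs, and the median slope of the 45 genes was between -0.04 and 0.14 in every chemical, against medians within 0.01 of 0 over all genes.

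With MMS 7 of the 45 fell (15.6%, against 10.4% of all genes) and 3 rose (6.67%, against 5.1%). Both shares are near those of all genes, so the counts are no result about the pathway. The chemokines CXCL3 (33.2 RPM in the control, then 15.01, 8.97 and 8.69 RPM) and IL8 (259.0, then 94.0, 70.1 and 78.5 RPM) fell, as CXCL1 and CXCL2 did. NFKBIZ, a nuclear IkappaB protein, went from 247.9 RPM to 89.0, 61.8 and 41.6 RPM (-0.88 ± 0.11, adjusted p = 9.71e-06). CX3CL1, a membrane-bound chemokine, went from 11.7 RPM to 6.55, 1.58 and 2.14 RPM. CXCL10, SOD2 and IL32 also fell, CXCL10 from few counts. The 3 that rose were RIPK1, a kinase of the TNF receptor complex, CYLD, a deubiquitinase that restrains the pathway, and TNFRSF12A, the TWEAK receptor, which went from 226.7 RPM to 252.9, 423.2 and 407.9 RPM.

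With COL 4 of the 45 rose and 1 fell, 11.1% together against 12.3% of all genes, so the count is no result about the pathway. IL6, an acute-phase cytokine, was at 0.644 RPM in the control and at 2.20, 3.87 and 6.51 RPM (1.07 ± 0.17 per step, adjusted p = 9.62e-05). Its counts were few, 3 to 60 over the 39 libraries. TNFRSF12A went from 177.5 RPM to 249.9, 329.6 and 492.2 RPM. TLR4, the endotoxin receptor, and IER3, an early response gene, rose as well, and CXCL10 fell. With 2NF TLR4, IER3 and IKBKG, the regulatory subunit of the IkappaB kinase, rose and none fell, 6.67% against 8.75% of all genes called in either direction, again near the background. None of the 45 was called with the other 7 chemicals.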

How the data were processed

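Gene expression was measured in 39 HepaRG™ libraries, grouped by GEO's labels into 10 chemicals at 3 concentrations and 9 vehicle controls. The authors aligned AmpliSeq reads with TMAP (Ion Torrent Suite v5.04, hg19), merged 5 chips by barcode and deposited counts per amplicon target. They also deposited RPM, each count divided by the library total, with no further normalization; recomputed RPM differed from the deposited values by at most 0.000538. Library totals had a median of 11202013 counts, and the reads carry no molecular identifiers. The 10 spike-in targets, with no reads, were left out.

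Counts were tested with edgeR 4.0.16 in R 4.3.3 (TMM, filterByExpr, quasi-likelihood), with the filter applied in each fit. The dose trends covered 13812 genes. The class comparison covered 13634, 13626 and 13602 genes at low, mid and high, and that of DMSO with media controls 13053. The main model held 9 intercepts, 1 per control set, and 10 slopes over steps 0 to 3, with 20 residual degrees of freedom, so p-values measure the spread of libraries around straight trends and not that between cultures. Classes were compared at each concentration with the control set as a block, and DMSO with media controls, 4 against 4. P-values were adjusted by Benjamini-Hochberg over all genes tested in a comparison, with a threshold of 0.05. Differences between single libraries used log2(RPM + 1), a scale that understates changes of low genes, and no test. The edgeR fits were also run on simulated counts that held no differences between control sets. That run therefore says nothing about calls that depend on a single control. Promoter windows are those of RefSeq.

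The 10 genes and all gene lists were chosen with earlier results of these data known, and 1 leukocyte marker is not reported here. Named genes are the 10 members, the pathway genes called in at least 1 chemical and, for each member, the 2 genes with the highest correlation. Alternatives were DESeq2 1.42.0, other size factors, filters, codings of concentration, intercepts, controls, pseudocounts and fold limits, and leaving out libraries or chemicals. Computations and plots used Python 3.11.15 with pandas 2.3.3, numpy 2.4.6, scipy 1.17.1 and matplotlib 3.10.9.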

Additional observations from a re-analysis of the deposited data

Results flagged for a closer look

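Among 80 groups of 4 or 5 libraries examined for a library far from the rest, 5 held one, where chance alone gives about 1 in 20. BIRC3 in the media control for 2DG was at 226.3 RPM, far above the other 3 media controls. The other 4 were MMS libraries compared with the remaining DDI chemicals at the same concentration. BIRC3 differed from the control by -0.78 on the log2 scale in MMS low and by -0.78 in MMS mid, while it was at or above the control with the other 4 DDI chemicals. CXCL1 differed by -1.93 and CCL2 by -1.46 in MMS high. The slopes of NFKBIA (adjusted p = 0.00350), BIRC3 (adjusted p = 0.00438) and CCL2 (adjusted p = 0.00370) differed among the 10 chemicals in edgeR's quasi-likelihood F test.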

How the results depend on the processing

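The counts of called slopes depended on how concentration and controls were modelled. With concentration coded as a share of the highest, 0 genes passed for AFB1, 1 for 2NF and 1 for COL, and with the mean of the 3 treated libraries set against the control, 0 passed for each of them. Over all genes, coding as a share called 218 higher and 339 lower for AFB1, 210 and 235 for 2NF, and 504 and 780 for COL. The mean called 0 and 0 for AFB1, 1 and 3 for 2NF, and 5 and 2 for COL. With 1 intercept per vehicle 4 passed for AFB1 and 4 for COL. Over all genes that setting called 864 higher and 805 lower for AFB1, and 1367 and 1440 for COL. The main fit called 326 and 443 for AFB1, and 708 and 996 for COL, so calls rose over all genes too. With 1 intercept for all libraries 0 passed for AFB1, 2 for 2NF and again 6 for MMS, without a share over all genes taken for that setting. When single libraries were left out the number ran from 0 to 1 for AFB1, from 0 to 4 for 2NF, from 0 to 6 for MMS and from 0 to 2 for COL, the 0 for MMS without the water control. The MMS slope of BIRC3 ranged from -0.44 without MMS high to 0.0385 without the water control, the 1 change of sign among the named slopes. Genes whose slopes differed among chemicals numbered 6 with no filter on low counts, 6 with 1 intercept per vehicle, 6 by the likelihood ratio test of DESeq2, 7 with 1 intercept, 5 without CISP low and 2DG low, 1 with concentration as a share and 0 with the mean of the treated libraries. NFKBIA, BIRC3 and CCL2 each lost their call in 2 settings, the mean of the treated libraries among them. The common intercept and the omission of CISP low and 2DG low were chosen after seeing the data. The count between DMSO and media controls ran from 0 to 1 when a control was left out. Pairs over 2-fold higher numbered 22 with a pseudocount of 5 and 17 against the mean of the controls of a vehicle, and at 1.5-fold 76 pairs were higher and 40 lower. Shares over all genes were not taken for these counts of pairs. For all of these the cause was not tested. The class comparison gave 0 genes under every alternative run, as did the slopes of CISP, ETP, 2DG, AMP, ASC and NaCl. Treated libraries were matched to their named controls in the fits, and the labels give no replicate numbers by which libraries could be paired further. Each condition is 1 library of pooled RNA, controls of the same vehicle differed by more than 2-fold in 5 of the 10 genes, and genes with few counts, such as CCL20, carry counting errors of up to 29.4%.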
